A study of Mus musculus with 12 samples.

Results

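The NF-kB genes studied here are 10 mouse genes in a set of chromatin accessibility libraries from bone marrow: 5 that encode the subunits of the transcription factor (Nfkb1, Nfkb2, Rel, Rela and Relb) and 5 that encode inhibitors or modulators induced by it (Nfkbia, Nfkbie, Nfkbiz, Tnfaip3 and Bcl3). A peak, meaning a region of open chromatin shared across the libraries, was given to a gene when its centre lay inside the gene or within 20 kb of its ends, and to the nearest of the 10 where more than one qualified. By that rule 97 of the 75281 deposited peaks belonged to the 10 genes, 50 to subunits and 47 to inhibitors, and all 97 had enough counts to be tested. The libraries came from NZO mice (NZO/HILtJ), an inbred line that becomes obese and often diabetic, and the labels name no treatment or engineered allele. The 4 groups were females of 18 months, males of 18 months, females of 3 months and males of 3 months, with 3 mice in each. ATAC-seq uses the Tn5 transposase to cut and tag open DNA, so that the number of reads over a peak measures its accessibility. The comparison asked how accessibility at the NF-kB genes differed between the ages, with sex taken into account.

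NF-kB is a family of dimers that wait in the cytoplasm of resting cells, held by inhibitor proteins. Signals such as tumour necrosis factor, interleukin 1 or bacterial lipopolysaccharide lead to the destruction of the inhibitor, after which the dimer enters the nucleus and switches on genes of inflammation and survival. Several of those genes encode inhibitors of the same pathway, which shut the response down again. In bone marrow the pathway acts in the making and activation of neutrophils, monocytes and B cells.

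Among the subunits, Rela and Rel (c-Rel) carry activation domains, Nfkb1 and Nfkb2 encode precursors that are cut to p50 and p52, and Relb is the main partner of p52 in the non-canonical branch. Among the inhibitors, Nfkbia (IkBa) and Nfkbie (IkBe) hold dimers in the cytoplasm, Tnfaip3 (A20) is a ubiquitin-editing enzyme that acts on signalling upstream, and Nfkbiz (IkBz) and Bcl3 are nuclear relatives that bind p50 or p52 on DNA.

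Several of these genes are known targets of the pathway themselves. RefSeq sequences on GRCm38.p6, running from 250 bases before a start to 50 bases after it, were at hand for 7 of the 10 genes. Nfkb1, Relb and Nfkbiz are not among them. On either strand, the classical 10-base kB consensus occurred in at least 1 window of 6 of these 7 genes, all but Rela. The share over all genes with such windows was 9.55%, and the share over all 32851 windows was 8.46%. Windows of 5 genes are shown to place the motif relative to the start peaks described below, in lower case with each match to the kB consensus in capitals. All are written 5′ to 3′ on the strand of the gene.
Rela, chr19:5637291-5637590, plus strand: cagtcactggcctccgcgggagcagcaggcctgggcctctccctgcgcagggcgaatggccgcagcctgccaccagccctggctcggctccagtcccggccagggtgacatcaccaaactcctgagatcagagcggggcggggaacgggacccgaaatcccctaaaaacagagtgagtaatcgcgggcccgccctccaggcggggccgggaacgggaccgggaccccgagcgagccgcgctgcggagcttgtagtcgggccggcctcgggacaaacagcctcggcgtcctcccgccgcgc
Nfkb2, chr19:46304487-46304786, plus strand: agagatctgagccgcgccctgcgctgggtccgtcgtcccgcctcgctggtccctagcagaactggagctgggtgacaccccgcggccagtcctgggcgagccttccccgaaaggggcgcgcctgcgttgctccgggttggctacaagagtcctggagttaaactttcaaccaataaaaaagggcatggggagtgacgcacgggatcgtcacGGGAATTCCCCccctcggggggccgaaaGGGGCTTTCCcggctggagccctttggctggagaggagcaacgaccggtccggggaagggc
Nfkbia, chr12:55492598-55492897, minus strand: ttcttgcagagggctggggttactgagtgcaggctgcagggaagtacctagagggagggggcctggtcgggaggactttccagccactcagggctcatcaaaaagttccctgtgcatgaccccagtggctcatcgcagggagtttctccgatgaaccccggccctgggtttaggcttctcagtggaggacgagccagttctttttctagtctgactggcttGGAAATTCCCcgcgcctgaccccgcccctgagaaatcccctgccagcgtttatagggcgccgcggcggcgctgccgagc
Tnfaip3, chr10:19015361-19015660, minus strand: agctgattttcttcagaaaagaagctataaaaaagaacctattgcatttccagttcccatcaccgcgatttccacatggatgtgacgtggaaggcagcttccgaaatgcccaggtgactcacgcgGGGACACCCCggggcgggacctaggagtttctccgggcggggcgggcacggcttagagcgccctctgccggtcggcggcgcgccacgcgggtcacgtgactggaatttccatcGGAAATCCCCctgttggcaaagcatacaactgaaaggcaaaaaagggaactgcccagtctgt
Bcl3, chr7:19822706-19823005, minus strand: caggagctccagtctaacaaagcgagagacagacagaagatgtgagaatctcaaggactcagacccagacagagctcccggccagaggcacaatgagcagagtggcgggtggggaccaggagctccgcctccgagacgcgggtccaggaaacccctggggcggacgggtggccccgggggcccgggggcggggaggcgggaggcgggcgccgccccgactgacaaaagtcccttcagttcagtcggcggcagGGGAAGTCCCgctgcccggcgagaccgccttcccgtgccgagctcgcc

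In the Nfkb2 window 3 matches formed 2 stretches, since matches beginning 39 and 38 bases upstream of the start overlap, and the other began 11 bases upstream. Nfkbia had 1 match, beginning 29 bases upstream. Tnfaip3 had matches beginning 125 and 12 bases upstream, and in Bcl3 the match began 2 bases after the start. Of the windows not printed, Rel held overlapping matches beginning 92 and 91 bases upstream and Nfkbie held 1 beginning 106 bases upstream. At 2 further starts of Nfkb2 the windows held 2 matches and 1 match, and the window at a second start of Tnfaip3 held 0. A match is a string of letters and not evidence that a protein was bound, and a window without one says only that these letters were not there. The printed windows of Rela, Nfkb2, Nfkbia and Tnfaip3 lay wholly within an accessible peak, and that of Bcl3 overlapped one. Of these 5 start peaks only that of Rela was called with TMM scaling, and the other calls at these genes lay in peaks that hold no printed window.

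The 97 peaks were uneven in number and neighbourhood. Nfkb1 had 15, Nfkbie 13, Relb and Bcl3 12 each, Rela 11, Nfkb2 and Nfkbiz 9 each, Tnfaip3 7, Nfkbia 6 and Rel 3. Of these, 34 had their centre inside the gene and 63 in a flank. For 40 of the 97 another protein-coding gene was nearer than the member, which applied to 11 of 13 peaks at Nfkbie, 8 of 12 at Relb and 7 of 11 at Rela. Peak widths reached 4296 bp with a median of 807 bp, against 706 bp over all peaks. In single libraries the member peaks held between 10 and 1094 counts.

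Total counts in peaks ranged from 7668099 to 12756647 per library, which puts the smallest detectable level, taken as 3 counts, at 0.235 to 0.391 CPM, a count scaled to the library total. Levels below are CPM scaled further by TMM factors (normalized CPM), and log2 fold changes compare 18 with 3 months in a model with age and sex over the 12 libraries. No sequencing run held both ages: the 18-month females were all from run 14, the 18-month males from run 15 and the 3-month mice from runs 28 to 31. Of the 3-month mice, male BM-253 was alone in run 30 and female BM-245 alone in run 28, so the library and its run cannot be told apart wherever BM-253 stands apart below. Age and run therefore cannot be told apart, nor can sex and run at 18 months, and no value within a run could be had for age. The protocols describe a sort for CD8 T cells (CD3e+ CD8+), while the labels name the sample as bone marrow. No peak was assigned to Cd3e, Cd8a, Cd8b1 or Bcl11b, 4 of the 8 T cell markers examined, whereas all 10 erythroid markers, all 8 B cell markers and 9 of 10 neutrophil markers had peaks. The other T cell markers, Cd3d, Cd3g, Cd4 and Lck, had 2, 3, 1 and 6 peaks. The libraries are described as bone marrow, as in the labels, and whether they were sorted was not tested. As these are bulk libraries, a change in the share of a cell type and a change of accessibility within a cell cannot be told apart.

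With age the inhibitor genes gained accessibility at 10 of their 47 peaks and lost it at none, while the subunit genes gained it at 2 of 50 and lost it at 4 (edgeR quasi-likelihood test, Benjamini-Hochberg adjusted p under 0.05 over all 75164 tested peaks). Those shares were 21.3% of inhibitor peaks higher and, for subunits, 4.0% higher and 8.0% lower. Over all tested peaks, 9.43% were higher and 11.6% lower at 18 months, 7089 and 8689 peaks, which became 11196 and 6629 with total counts. The inhibitor share thus stood above the share of all peaks that were higher, and both subunit shares stood below those of all peaks. Single libraries moved the inhibitor count: without 18-month female BM-42, 18-month male BM-40 or 3-month female BM-245 it was 5 of 47 (10.6%), beside 8.03%, 7.39% and 6.67% of all peaks. Without 3-month female BM-243 or 3-month male BM-252 it was 6 (12.8%), beside 8.24% and 8.42%. The median log2 fold change was 0.19 at inhibitor peaks, 0.05 at subunit peaks and 0.02 over all tested peaks, and whether inhibitors differ from subunits was not tested. Positive values were seen at 37 of 47 inhibitor peaks and 33 of 50 subunit peaks, against 53.0% of all peaks.

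Under other scalings the inhibitors had 0 peaks lower. With RLE size factors, another scaling by library, inhibitor and subunit counts were those of TMM, beside 8.84% higher and 11.9% lower over all peaks. With the scalings that follow, the subunit split changed. With total counts, where 14.9% of all peaks were higher and 8.82% lower, 15 inhibitor peaks were higher (31.9%) and the subunits had 5 higher and 3 lower (10.0% and 6.0%). Offsets that follow peak abundance gave 9.53% and 10.4% over all peaks, 10 inhibitor peaks higher (21.3%) and subunit counts of 4 and 2 (8.0% and 4.0%). Offsets that follow peak width gave 8.44% and 9.51% over all peaks, 9 inhibitor peaks higher (19.1%) and subunit counts of 4 and 1 (8.0% and 2.0%). The share of higher subunit peaks was thus near or below that of all peaks under each of these scalings. The inhibitor calls were uneven among genes. With TMM scaling, 5 of 12 peaks at Bcl3 and 2 of 9 at Nfkbiz were higher. Nfkbia had 2 of 6 peaks higher, Tnfaip3 1 of 7 and Nfkbie 0 of 13. Bcl3 thus supplied 5 of the 10 inhibitor calls, and without it 5 of 35 peaks were called, or 14.3%. Where the member itself was the nearest coding gene, 9 of 30 inhibitor peaks were higher (30.0%). Of 27 such subunit peaks 2 were higher and 1 lower (7.41% and 3.7%), beside 9.43% and 11.6% of all peaks. These last restrictions were chosen after the data had been seen.

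**Figure D1:**
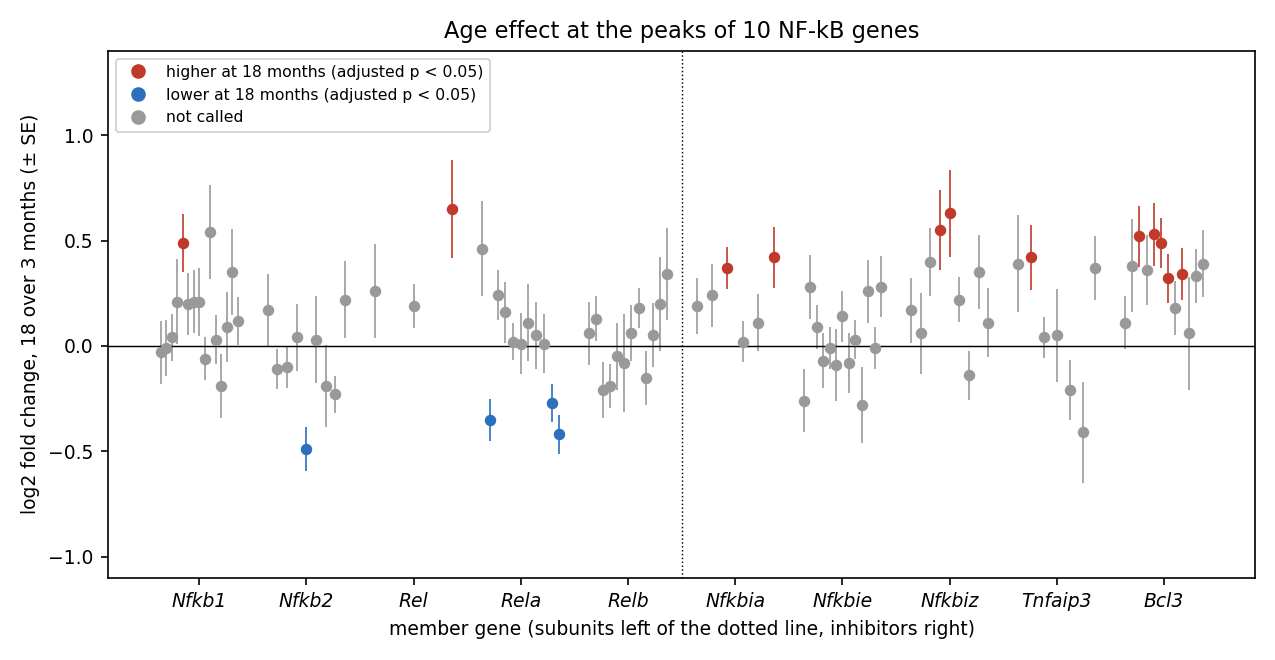
Log2 fold change of accessibility (18 over 3 months, vertical axis, with SE) at each of the 97 peaks, grouped by gene and ordered along the chromosome; red and blue mark peaks called higher or lower at 18 months by edgeR, grey those not called. All 10 calls at inhibitor genes are above 0, the 4 negative calls lie at Nfkb2 and Rela, and every peak of Bcl3 is above 0.

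Rela (chr19:5637442-5648134, GRCm38) encodes the p65 subunit that carries most of the activating function of the pathway. Its start peak, chr19:5636533-5638477, spans the promoter printed above. There the 18-month libraries ran from 30.7 to 40.4 normalized CPM with a median of 34.9, and the 3-month libraries from 33.4 to 51.1 with a median of 45.3. A single younger library lay within the range of the older mice. Accessibility fell with age by 0.35 on the log2 scale (SE 0.0995, edgeR adjusted p = 0.00902), or to 0.786-fold. This was the only start peak of the 10 that was called. The call was lost with abundance-trend offsets and with width offsets, where the edgeR adjusted p was at most 0.108. Over the 19 other settings the log2 fold change ran from -0.41 to -0.17.

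The 3′ flank of Rela held 2 broad peaks that also fell. At chr19:5664539-5667816, nearest to Pcnx3, normalized CPM was 35.6 to 43.5 (median 38.2) at 18 months and 46.3 to 58.5 (median 51.8) at 3 months. The ages did not overlap. The log2 fold change was -0.42 (SE 0.0934, edgeR adjusted p = 0.000764), and the call was lost only with width offsets. Its neighbour chr19:5660098-5664387, nearest to Sipa1 and spanning that gene's start, had a log2 fold change of -0.27 (edgeR adjusted p = 0.0254), a call lost in 7 of 19 other settings, among them total counts and both kinds of offsets. Another gene is nearer than Rela to both. Within the gene, 3 peaks other than the start peak had values from 0.02 to 0.24 that did not pass; the one at 0.02 was called with abundance-trend and with width offsets.

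Nfkb2 (chr19:46300994-46312400) encodes the p100 precursor, which restrains RelB dimers until it is cut to p52. Its start peak, chr19:46303542-46306348, ranged from 57.8 to 78.0 normalized CPM (median 68.2) at 18 months and from 62.6 to 90.1 (median 72.4) at 3 months, overlapping widely. The log2 fold change was -0.11 (SE 0.0955, edgeR adjusted p = 0.449). Over the 19 other settings it ran from -0.16 to 0.12, and none called the peak. In contrast, a peak in the 3′ flank, chr19:46313571-46315602, nearest to Psd, was 18.4 to 20.7 (median 19.7) in the older and 22.2 to 32.8 (median 28) in the younger mice. Again the ages did not overlap. Accessibility there fell by 0.49 on the log2 scale (SE 0.104, edgeR adjusted p = 0.000488), and this was the one lower call that held in all 19 other settings.

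Nfkb1 (chr3:135584655-135691969) encodes p105, the precursor of p50. A peak inside the gene, chr3:135593553-135594522, ran from 8.53 to 14.6 normalized CPM (median 12.5) at 18 months and from 7.25 to 11 (median 7.95) at 3 months. The older libraries were mostly above the younger, with some overlap. Accessibility rose by 0.49 on the log2 scale (SE 0.138, edgeR adjusted p = 0.0077), or 1.41-fold, and kept its call in all 19 other settings. The peak at the end of the gene with the higher signal, chr3:135690690-135692177, had 17.2 to 21.0 (median 19.3) at 18 months against 13.2 to 21.7 (median 18.2), with a log2 fold change of 0.12 (SE 0.114, edgeR adjusted p = 0.509). The strand of Nfkb1 was not in the tables used, so its start was taken as that end.

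Rel (chr11:23736847-23770969) encodes c-Rel, a subunit best known from lymphocytes. A small peak beyond its start, chr11:23778776-23779118, gave the largest positive change of the 97: 2.63 to 5.71 normalized CPM (median 4.35) at 18 months against 1.35 to 4.36 (median 2.42) at 3 months. The ranges overlapped. The log2 fold change was 0.65 (SE 0.234, edgeR adjusted p = 0.0384), resting on 12 to 70 counts a library, and 8 of 19 other settings lost the call. The start peak, chr11:23770259-23772044, ran from 32.6 to 55.1 (median 42.3) and from 32.0 to 45.8 (median 38.3), with a log2 fold change of 0.19 (SE 0.103, edgeR adjusted p = 0.176).

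Relb (chr7:19606217-19629438) had no called peak among 12. At the end with the higher signal, chr7:19626964-19630592, the older mice had 65.3 to 86.5 normalized CPM (median 70.8) and the younger 60.2 to 78.8 (median 64.1), a log2 fold change of 0.18 (SE 0.094, edgeR adjusted p = 0.178). Both this peak and the Rel start peak passed the test, as higher, with total counts, with both kinds of offsets and without the 3-month male BM-253. Over the 19 other settings the edgeR and DESeq2 adjusted p ran from 8.98e-06 to 0.374 for Relb and from 0.000507 to 0.377 for Rel. The smallest p among the other Relb peaks was at chr7:19603481-19604768, nearest to Clasrp, with 18.4 to 27.0 (median 21.0) against 21.7 to 26.1 (median 25.5) and a log2 fold change of -0.19 (SE 0.106, edgeR adjusted p = 0.196).

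**Figure D2:**
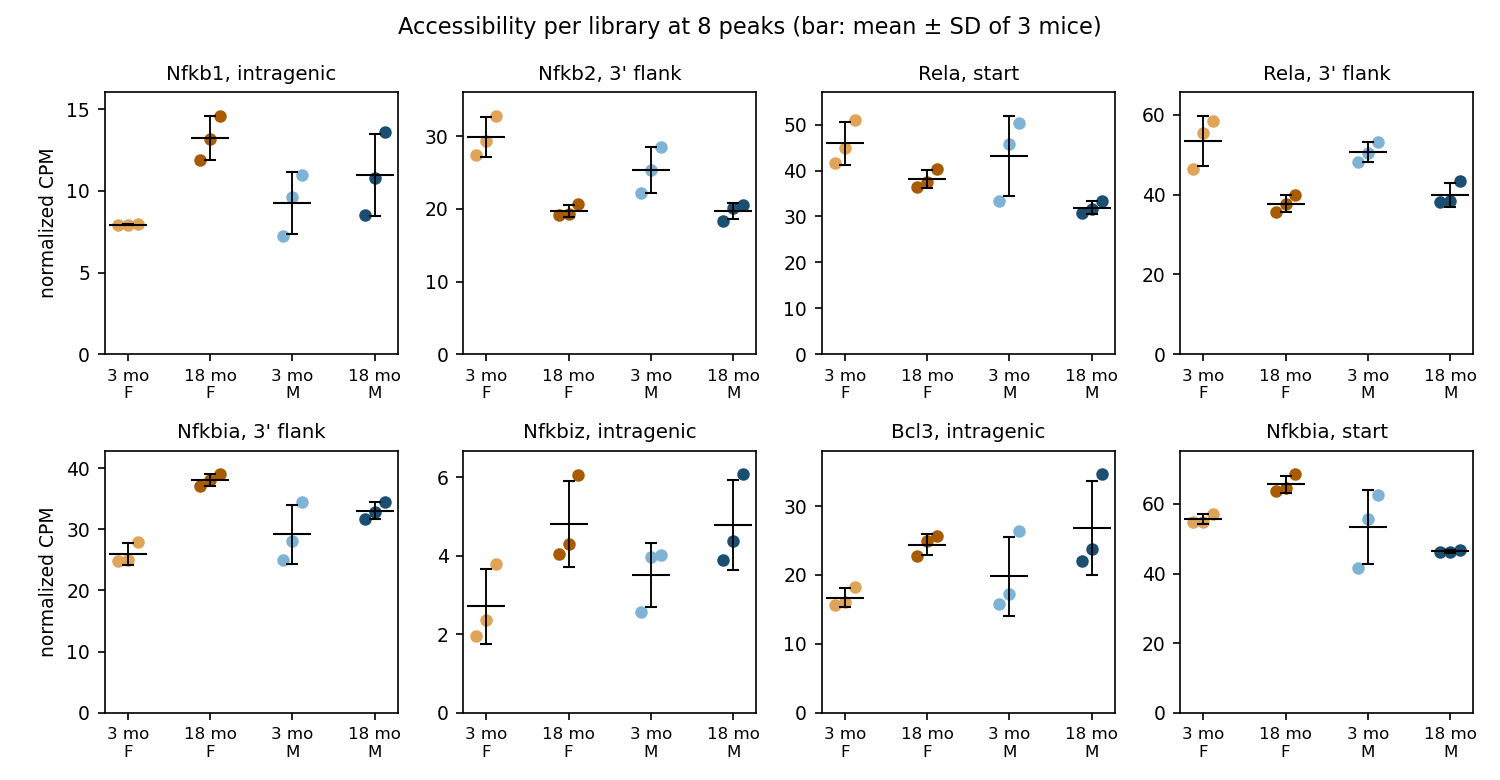
Normalized CPM (vertical axis, from 0) in each of the 12 libraries at 8 peaks, by age and sex; points are single mice and bars the mean with SD of 3. At the 3′ flank peaks of Nfkb2 and Rela every older mouse lies below every younger mouse, while at the start peak of Nfkbia the 18-month females lie at 63.8 to 68.5 and the 18-month males at 46.1 to 46.8.

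Bcl3 (chr7:19808462-19822824) gained at more peaks than any other member. Its protein is an atypical IkB that sits on p50 or p52 homodimers in the nucleus. All 12 of its peaks had positive values, from 0.06 to 0.53 with a median of 0.35, and 5 were called higher. Under the abundance-trend and width offsets, and with some single libraries left out, 11 of 12 were positive, and between 3 and 7 were called across the 19 other settings. The called peak with the smallest p lay inside the gene at chr7:19815718-19816867, where 18-month libraries had 22.0 to 34.6 normalized CPM (median 24.3) and 3-month libraries 15.7 to 26.4 (median 16.7). Only the 3-month male BM-253 reached into the older range. Accessibility rose by 0.49 on the log2 scale (SE 0.119, edgeR adjusted p = 0.00217), or 1.4-fold.

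Around it lay further gains. Inside the gene, chr7:19813426-19814018 had a log2 fold change of 0.53 (edgeR adjusted p = 0.00802) and chr7:19817254-19818461 one of 0.32 (edgeR adjusted p = 0.0383). Beyond the start, chr7:19823572-19824612 stood at 0.34 (edgeR adjusted p = 0.0389). Of these, the peaks at 0.32 and 0.34 lost their calls in 10 and 9 of 19 other settings, and the peak at 0.53 kept its call in all 19. The fifth, chr7:19796978-19797500, at 0.52 (edgeR adjusted p = 0.00727), was nearest to Cblc. Between them the start peak itself, chr7:19821904-19822934, ran from 10.1 to 17.6 (median 12.5) against 9.74 to 13 (median 11.2) and did not pass, with a log2 fold change of 0.18 (SE 0.128, edgeR adjusted p = 0.331). Summed over the 12 peaks, Bcl3 had 158.5 to 201.2 normalized CPM per library at 18 months and 115.9 to 183.6 at 3 months, a ratio of means of 1.27. The highest 3-month sum, 183.6, was that of male BM-253, and the other 3-month libraries reached at most 144.1.

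Nfkbia (chr12:55489409-55492647) encodes IkBa, the quickest of the feedback inhibitors. Just past its 3′ end, chr12:55487640-55489380, normalized CPM was 31.7 to 39 (median 35.8) at 18 months and 24.9 to 34.4 (median 26.5) at 3 months. A single younger library, male BM-253, overlapped the older ones. Accessibility rose by 0.37 on the log2 scale (SE 0.101, edgeR adjusted p = 0.00704), and the call held in all 19 other settings. On the far side of the gene, chr12:55498878-55499550 rose by 0.42 (edgeR adjusted p = 0.0296). The start peak between them, chr12:55490363-55493121, which contains the printed promoter and most of the gene, had a median of 55.3 at both ages and a log2 fold change of 0.02 (SE 0.0985, edgeR adjusted p = 0.898). With abundance-trend and with width offsets the start peak was called higher instead (edgeR adjusted p down to 0.0141) and the far-side peak was not, and 7 of 19 other settings in all lost the far-side call.

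**Figure D3:**
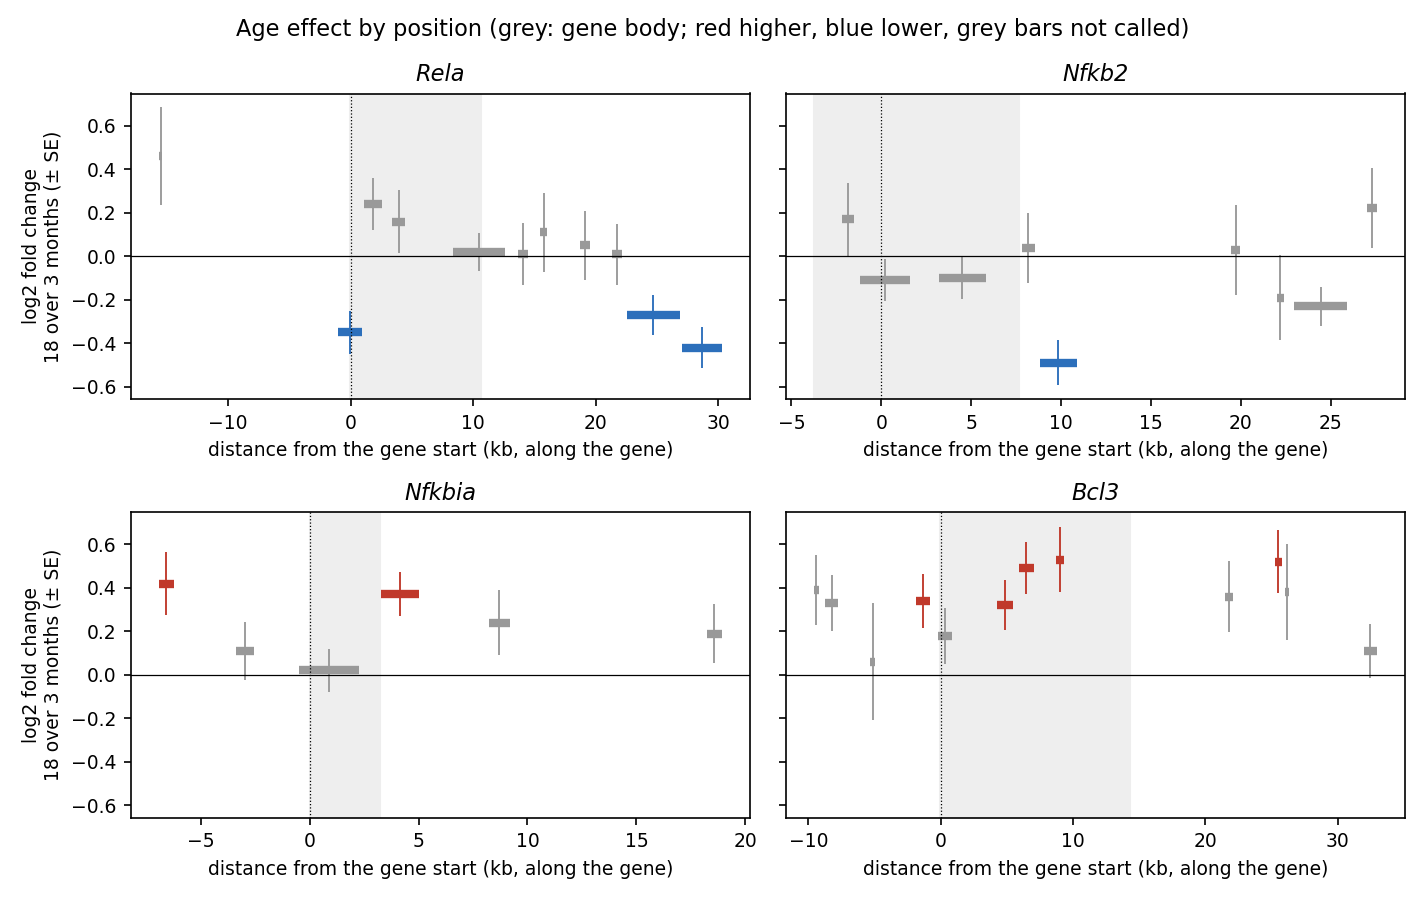
Log2 fold change (18 over 3 months, with SE) of each peak of Rela, Nfkb2, Nfkbia and Bcl3 against its distance from the gene start in kb along the gene; bar lengths are peak widths and the shaded band is the gene body. With TMM scaling, calls at Nfkbia and Bcl3 lie to both sides of start peaks that were not called (0.02 and 0.18) and the start peak of Rela lies at -0.35; with abundance-trend or width offsets the Nfkbia start peak was called higher, and the far-side Nfkbia peak and the Rela start peak were not called.

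Nfkbiz (chr16:55811375-55838954) encodes IkBz, which is needed for a subset of secondary response genes. Calls were made at a pair of small neighbouring peaks near the lower end of the gene. Inside it, chr16:55811875-55812226 had 3.89 to 6.08 normalized CPM (median 4.35) at 18 months and 1.97 to 4.02 (median 3.18) at 3 months, a log2 fold change of 0.63 (SE 0.206, edgeR adjusted p = 0.0217). The ranges just overlapped, and 7 of 19 other settings lost the call. Next to it, chr16:55810046-55810435 rose by 0.55 (SE 0.189, edgeR adjusted p = 0.0293) without overlap, from 2.8 to 3.81 at 3 months to 4.3 to 6.34 at 18 months, and 6 of 19 other settings lost that call, both kinds of offsets among them. The peak at the other gene end, chr16:55838132-55839458, ran from 16.8 to 21.1 (median 18.8) against 14.5 to 24.3 (median 21.2), with a log2 fold change of -0.14 (SE 0.115, edgeR adjusted p = 0.433).

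Tnfaip3 (chr10:19000910-19015410) encodes A20. Its single call, inside the gene at chr10:19009084-19009645, rested on 6.41 to 10.8 normalized CPM (median 7.92) against 4.87 to 7.0 (median 6.52). The log2 fold change was 0.42 (SE 0.153, edgeR adjusted p = 0.0411), the weakest of the calls, and 11 of 19 other settings lost it. The start peak, chr10:19014780-19016059, changed little with TMM scaling: 32.0 to 43.6 (median 35.1) and 33.5 to 39.9 (median 35.5), with a log2 fold change of 0.04 (SE 0.0963, edgeR adjusted p = 0.813). Over the 19 other settings its value ran from -0.01 to 0.2, and none called it (edgeR and DESeq2 adjusted p at least 0.0562).

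Nfkbie (chr17:45555700-45563169) had no called peak among 13, although with abundance-trend and with width offsets 1 peak, nearest to Hsp90ab1, was called higher. Its start peak, chr17:45555499-45557525, had 25.6 to 38.4 normalized CPM (median 32.4) at 18 months and 25.9 to 33.4 (median 31.1) at 3 months, a log2 fold change of 0.09 (SE 0.105, edgeR adjusted p = 0.605). The smallest p among its other peaks was at chr17:45582822-45583332, nearest to Slc29a1, with 6.98 to 13.7 (median 10.7) against 6.37 to 10.4 (median 8.59) and a log2 fold change of 0.28 (SE 0.145, edgeR adjusted p = 0.162).

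Without overlap between the ages were 1 member peak in the higher direction, at Nfkbiz, and 2 in the lower, at Rela and Nfkb2. Over all tested peaks, 2.2% were without overlap and higher and 5.04% without overlap and lower, so the members were near or below these shares.

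Calls were also counted by position and width, and these counts depended on the scaling. The start peaks of Nfkb1, Relb and Nfkbiz were taken at a gene end. The shares over all peaks count only starts that have a promoter window, so the 2 sets are not defined alike. With TMM scaling 0 of the 10 start peaks were higher and 1 lower, beside 4.08% and 29.3% of all 10109 tested peaks that hold a gene start. They were 2 and 1 with total counts (7.85% and 23.2% of all start peaks) or without the 3-month male BM-253 (6.72% and 28.7%). With offsets that follow abundance they were 3 and 0 (9.92% and 17.1%), and with offsets that follow width also 3 and 0 (7.83% and 16.3%). Peaks holding no start, 65055 in number, were higher in 10.3% and lower in 8.81% with TMM scaling. By width, again with TMM scaling, the 14 member peaks of 2000 bp or more had 0 higher and 3 lower, beside 5.67% and 40.3% of all such peaks. The 20 in the next narrower class had 4 higher and 1 lower, beside 8.96% and 19.3%, and the 42 in the class below that had 5 and 0, beside 10.7% and 7.08%. Among the 21 members narrower than 500 bp 3 were higher and 0 lower, beside 9.1% and 2.82%. The share of higher member peaks thus followed no steady order with width. Among all peaks of 2000 bp or more, offsets fitted on abundance gave 18.9% higher and 23% lower, and those fitted on width gave 18.5% and 19.5%. The 3 broad member peaks that fell were those of Nfkb2 and Rela in the 3′ flanks, and the Rela start peak was the lower call of the next narrower class.

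Start peaks could be ranked among genes only per length. In normalized CPM per kb (mean ± SD, n = 12 libraries), Tnfaip3 stood first at 28.4 ± 2.6, followed by Nfkb2 at 25.0 ± 3.12 and Rel at 22.9 ± 3.93. Nfkb2 and Rel, and Rel and Rela, differed by less than their SD. Rela at 20.5 ± 3.64, Nfkbia at 20 ± 3.12 and Relb at 19.3 ± 2.49 came next and differed from each other by less than their SD. Nfkbie at 15.4 ± 2.02 and Nfkbiz at 14.9 ± 2.11 did so too. Nfkb1 at 12.5 ± 1.54 and Bcl3 at 11.8 ± 2.09 were lowest and also within their SD of each other. The order of the means in the middle differed between the ages. At 3 months Rela (22.9 ± 3.34, n = 6) stood above Rel (21.3 ± 2.74), by less than either SD. At 18 months Rela (18.0 ± 1.93) stood below Rel (24.6 ± 4.49), by more than either SD. Rela was then also below Relb (20.5 ± 2.6) and Nfkbia (20.3 ± 3.85), by less than the SD of each of those genes. Tnfaip3 was first, and Nfkb1 and Bcl3 last, at both ages. For Nfkb1, Relb and Nfkbiz these are the peaks at the gene end with the higher signal.

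Within each sex the calls were fewer. In females 9 member peaks were higher and 2 lower, shares of 9.28% and 2.06%, with 5.7% and 6.2% over all peaks. Without 18-month female BM-36 or 3-month female BM-244 the higher calls were 3 (3.09%), beside 2.29% and 2.33% of all peaks, and without 18-month female BM-35 or 3-month female BM-245 they were 4 (4.12%), beside 2.84% and 2.78%. In males 0 were higher and 2 lower, with 3.21% and 8.18% over all peaks. Rescaling changed the male calls to 6 higher and 1 lower by total counts (6.11% and 5.45% over all peaks), 5 and 0 with abundance-trend offsets (3.16% and 4.73%) or 0 and 0 with width offsets (2.91% and 4.9%). The female calls included Bcl3 at chr7:19815718-19816867 (log2 fold change 0.55, edgeR adjusted p = 0.0174), the Nfkbia 3′ peak (0.55, edgeR adjusted p = 0.00378) and the Nfkb1 intragenic peak (0.73, edgeR adjusted p = 0.00533). At the same peaks males had 0.43, 0.18 and 0.25, none past the threshold. Both male calls were at Rela, the start peak at -0.43 (edgeR adjusted p = 0.028) and chr19:5660098-5664387 at -0.40 (edgeR adjusted p = 0.018). Male calls moved with single young males: without BM-253 they were 5 higher and 0 lower (3.25% and 6.26% over all peaks), and without BM-252 they were 3 higher and 7 lower (4.73% and 11.4% over all peaks).

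A difference in the age effect between the sexes was not shown, and at 18 months sex cannot be told apart from run. The interaction gave 0 called member peaks, with 10 at an unadjusted p under 0.05 by edgeR and 0 called with 8 by DESeq2, and 0.00532% were called over all peaks. At that unadjusted threshold edgeR had 10.3% of member peaks and 9.99% of all peaks. Without the 3-month male BM-252, 3 member peaks were called, all lower, beside 0.314% higher and 1.84% lower over all peaks. Its smallest p fell on the Nfkbie start peak. In females that peak had 34.3, 36.2 and 38.4 normalized CPM at 18 months and 25.9, 26.9 and 30.6 at 3 months. In males it had 25.6, 28 and 30.5 at 18 months and 31.5, 33.2 and 33.4 at 3 months. Older females were all above younger females, and older males all below younger males. The difference (male minus female) was -0.60 on the log2 scale (SE 0.189) and did not pass (edgeR adjusted p = 0.273), although without the 3-month male BM-252 it did (edgeR adjusted p = 0.0487). In females alone the peak passed at 0.39 (edgeR adjusted p = 0.0447) and in males, at -0.22, it did not (edgeR adjusted p = 0.317).

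Sex itself gave 0 called member peaks, with 5 at an unadjusted p under 0.05 by edgeR and 0 called with 4 by DESeq2, and 0.162% were called over all peaks. The 5 are 5.15% of member peaks, against 7.57% of all peaks. The smallest p was at the Nfkbia start peak, with a difference (male minus female) of -0.28 on the log2 scale (SE 0.0985, edgeR adjusted p = 0.447). Without the 3-month male BM-253 it was -0.36 and passed (edgeR adjusted p = 0.0171). The 18-month males, at 46.1, 46.3 and 46.8 normalized CPM, lay below the 18-month females at 63.8, 64.5 and 68.5, and these were also runs 15 and 14. The 3-month males, at 41.7, 55.7 and 62.7, lay on both sides of the 3-month females at 54.7, 54.9 and 57.2.

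**Figure D4:**
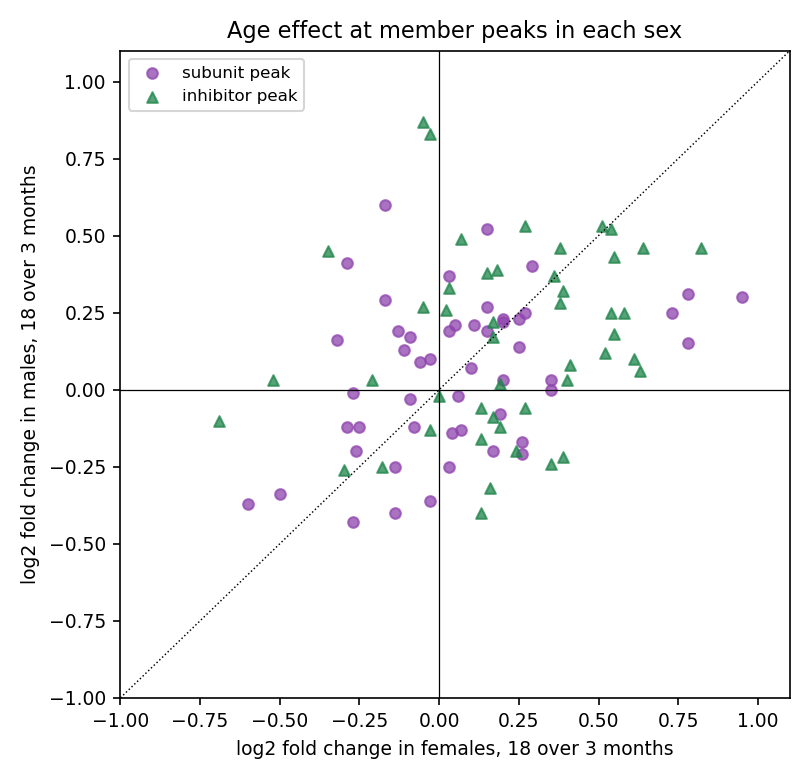
Log2 fold change of accessibility (18 over 3 months) in females (horizontal) and in males (vertical) at each member peak, circles for subunits and triangles for inhibitors; the dotted line marks equal effects. Median values were 0.19 in females and 0.17 in males at inhibitor peaks and 0.05 and 0.09 at subunit peaks, and single peaks scatter widely around the line.

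Accessibility at marker genes of other cell types differed between the ages in these libraries, and those values stand beside the results above. Summed over 40 peaks of 9 neutrophil marker genes such as Ltf and Ngp, normalized CPM was 606.9 to 746.0 at 18 months and 464.5 to 729.7 at 3 months, with 20 peaks higher and 0 lower. The high 3-month value, 729.7, was male BM-253, the same library that was high for Bcl3, and the others reached at most 531.2. Erythroid markers went the other way, from 1142 to 1463 at 3 months to 658.0 to 734.7 at 18 months, with 41 of 52 peaks lower and 0 higher. Megakaryocyte markers had 306.3 to 352.5 at 3 months and 254.5 to 265.8 at 18 months, with 5 of 23 peaks lower and 0 higher. The summed range of monocyte and macrophage markers overlapped (270.8 to 302.4 at 18 months and 263.8 to 304.3 at 3 months). Of their 24 peaks 5 were higher (20.8%, beside 21.3% of inhibitor peaks) and 1 lower, and 7 of 8 genes, all but Irf8, had the higher mean at 18 months. Ranges also overlapped for B cell, plasma cell, T cell, natural killer cell and progenitor markers, with 3 of 44, 4 of 15, 1 of 11, 1 of 7 and 1 of 11 peaks higher and 2, 1, 1, 0 and 0 lower. The part of these cell types in the NF-kB results was not tested. Without male BM-253 the members had 19 peaks higher and 5 lower (19.6% and 5.15%), beside 12.0% and 12.9% of all peaks, where with it they had 12 and 4 (12.4% and 4.12%), beside 9.43% and 11.6%.

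**Figure D5:**
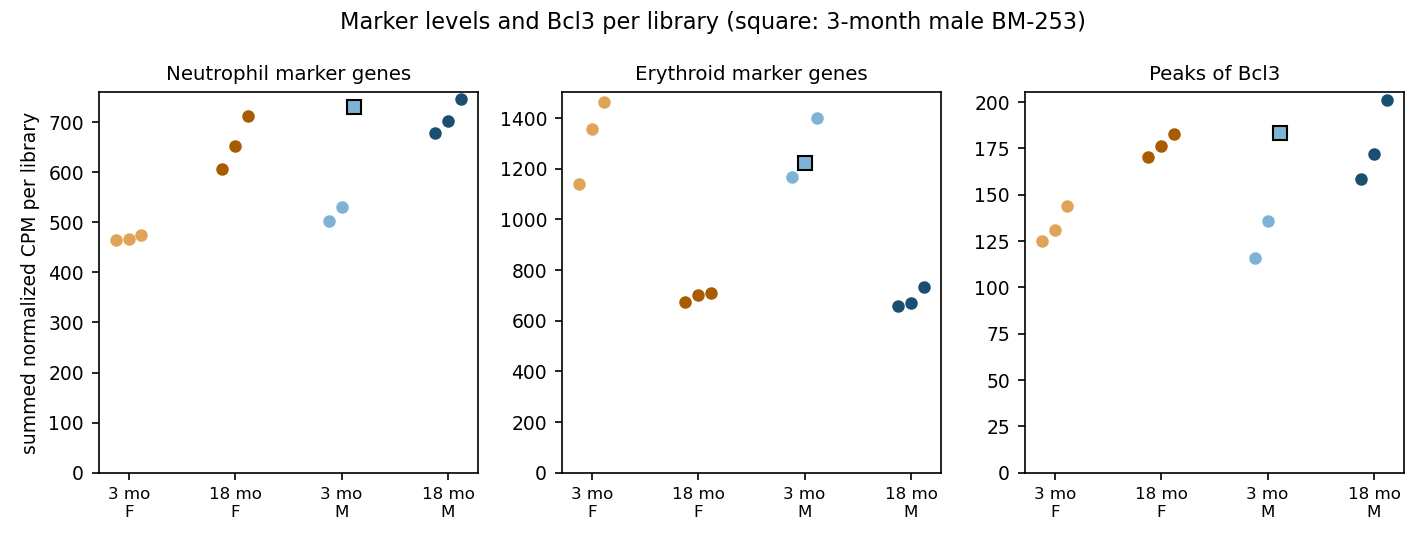
Summed normalized CPM per library (vertical axis, from 0) of neutrophil markers, erythroid markers and the 12 Bcl3 peaks, by age and sex, each point 1 mouse and the square the 3-month male BM-253. That male lies with the older mice for neutrophil markers (729.7) and Bcl3 (183.6) but among the young for erythroid markers.

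The rest of the pathway was read from a list of 42 further genes with 300 peaks, of which 48 (16.0%) were higher and 17 (5.67%) lower at 18 months (83 and 15 with total counts), with a median log2 fold change of 0.11. Over all tested peaks the shares were 9.43% and 11.6% (14.9% and 8.82% with total counts). Receptors and ligands had 20 higher and 6 lower of 73 peaks (27.4% and 8.22%), and targets 14 and 5 of 54 (25.9% and 9.26%). Adaptors and kinases, with 8 and 4 of 86 (9.3% and 4.65%), and the other inhibitors and modulators, with 6 and 2 of 87 (6.9% and 2.3%), were near or below the shares of all peaks. By smallest p in the higher direction came Ikbke, an IkB kinase relative, at chr1:131286226-131287511 with a log2 fold change of 0.69 (edgeR adjusted p = 3.34e-05). Tlr4, the lipopolysaccharide receptor, followed at chr4:66851795-66852524 with 0.83 (edgeR adjusted p = 7.81e-05), and then Tlr2, a receptor for bacterial lipoproteins, at chr3:83844781-83845667 with 0.64 (edgeR adjusted p = 0.000133). Tlr2 and Tlr4 are abundant on myeloid cells.

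In the lower direction a broad peak in the flank of Icam1, an adhesion molecule, at chr9:21026137-21033940 had -0.51 (edgeR adjusted p = 1.25e-05). One in the 20 kb flank of Sod2, the mitochondrial superoxide dismutase, at chr17:12990837-12993373 had -0.46 (edgeR adjusted p = 0.000333). One in Tnfaip2 at chr12:111441075-111444740 had -0.45 (edgeR adjusted p = 0.000359). All 6 named peaks but that in Tnfaip2 lay in flanks. Whether another gene lay nearer was not looked up for pathway peaks. These 6 calls held in all 19 other settings, although the lower values shrank in some. They came to -0.24 for Icam1 and Sod2 and -0.22 for Tnfaip2. The smallest higher values were 0.63 for Ikbke, 0.76 for Tlr4 and 0.55 for Tlr2. Chosen after their values were seen, Tnfrsf1a (the main receptor of tumour necrosis factor) had 7 of 11 peaks higher, Nfkbid, another nuclear IkB relative of Bcl3, 4 of 5, and the neutrophil chemokine gene Cxcl2 3 of 3. Il1r1, the interleukin 1 receptor, had 3 of 11 lower and 0 higher. Among the genes of the IkB kinases and their scaffold, Ikbkb had 2 of 7 peaks higher and Ikbke 2 of 8, while Chuk had 0 of 4 and Ikbkg 0 of 7 called in either direction.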

How the data were processed

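Counts per consensus peak, as deposited by the authors, covered 75281 peaks in 12 ATAC-seq libraries; they were whole numbers with no scaling and a smallest value of 1. Per the submitters' processing notes, Trimmomatic, BWA, MACS2, DiffBind and edgeR were used with build mm10; versions, parameters, duplicate removal, shifting of read ends and the counting rule are not given in the sources used here. The floor of 1 in place of 0 shrinks fold changes of the lowest peaks. Groups, sexes, runs and mouse numbers came from the sample labels. The number in each title was taken as the mouse, and p-values measure only the spread between these libraries. No library pair held identical values.

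Gene positions and promoters were RefSeq on GRCm38.p6. As a check of the build, 13.4% of peaks held a gene start as deposited and 2.32% to 2.4% after shifting. Testing took the 75164 peaks that exceeded 1 CPM in 2 or more libraries, with edgeR 4.0.16 in R 4.3.3 (TMM factors, quasi-likelihood F test, Benjamini-Hochberg adjustment over all of them, threshold 0.05); SE came from the F statistic. Age and sex effects used an additive model; effects within a sex and the interaction used 1 mean per group. The test was also run on simulated counts, and no result above rests on that run. DESeq2 1.42.0 and other scalings, filters, windows and left-out libraries were alternatives. For each gene the text describes the start peak and the other peak with the smallest p for age, and for the rest of the pathway the 3 smallest p in each direction. Counting error alone limits levels near 3 counts, and no molecular identifiers are named.

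The members, the gene lists and the rules were chosen with earlier results of these data known, and nothing in the lists is independent of them. The sequences used were the RefSeq promoter windows.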

Additional observations from a re-analysis of the deposited data

Results flagged for a closer look

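At 5 of 40 groups of 6 libraries (20 described peaks at 2 ages), 1 library stood far from the rest by Dixon's test; chance alone flags about 1 group in 20. The 3-month male BM-253 was the highest young mouse at the Nfkbia 3′ peak, with 34.4 normalized CPM against a median of 26.5, at the Relb peak chr7:19626964-19630592, with 78.8 against 64.1, and at the Bcl3 peak chr7:19815718-19816867, with 26.4 against 16.7. The 18-month male BM-40 was the highest old mouse at the same Bcl3 peak, with 34.6 against 24.3, and the 3-month male BM-252 was the lowest young mouse at the Relb peak chr7:19603481-19604768, with 21.7 against 25.5. In the labels BM-253 is the only library of run 30, while BM-40 and BM-252 shared their runs with other libraries (runs 15 and 31).

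The Nfkbie start peak was higher in every older than in every younger female and lower in every older than in every younger male. The test of that difference gave -0.60 on the log2 scale and an edgeR adjusted p of 0.273, so it failed the correction.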

How the results depend on the processing

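Of the 16 called member peaks, 6 were called in all 19 other settings: Nfkb1 chr3:135593553-135594522, Nfkb2 chr19:46313571-46315602, the Nfkbia 3′ peak and 3 at Bcl3. Under every scaling 8 held, 6 of them at inhibitors. No called value reversed. The count of subunit calls, 6 of 50 peaks, became 3 of 28 in a 3 kb window (3.57% higher, 7.14% lower), 10 of 94 in a 50 kb window (3.19% and 7.45%) and 3 of 27 where the member was the nearest coding gene (7.41% and 3.7%). The count of inhibitor calls, 10 of 47, became 8 of 19 in a 3 kb window (42.1% and 0.0%) and 17 of 75 in a 50 kb window (20% and 2.67%). It was 9 of 30 where the member was the nearest coding gene (30.0% and 0.0%) and 5 of 35 without Bcl3 (14.3% and 0.0%). Over all peaks 9.43% were higher and 11.6% lower. Leaving out 1 library gave 5 to 15 inhibitor calls (5 without 18-month female BM-42, 18-month male BM-40 or 3-month female BM-245, 6 without 3-month female BM-243 or male BM-252, 15 without male BM-253) and 5 to 9 subunit calls. Calls in females, 11, ranged from 5 to 16 (5 without 18-month female BM-36, 6 without 18-month female BM-35 or 3-month female BM-245 or BM-244). Calls in males, 2, became 7 with total counts, 5 with abundance-trend offsets and 0 with width offsets, and ranged from 0 to 10 with 1 library left out (0 without 3-month male BM-251, 1 without 18-month male BM-38, BM-39 or BM-40, 5 without BM-253, 10 without BM-252). Interaction calls ranged from 0 to 3 (3 without 3-month male BM-252) and sex calls from 0 to 1 (1 without 3-month male BM-253). Pathway calls, 65, became 98 with total counts, which moved the median of all peaks from 0.02 to 0.10, and ranged from 51 to 94 with 1 library left out. Cause was not tested for any of these changes. No pairing by mouse was possible because the groups share no mouse number. Runs 29 and 31 each held a 3-month female and a 3-month male, and sex was not compared within these runs. Peaks of unlike depth also differed in SE: the Rel peak with 12 to 70 counts had an SE of 0.234, and the Rela peak chr19:5664539-5667816 with 347 to 564 counts one of 0.0934. The part of depth in this was not tested.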
